A study of Mus musculus with 9 samples.

Results

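Enterochromaffin cells are the serotonin-producing endocrine cells scattered through the gut epithelium, and 8 genes of their secretory granules and of serotonin handling were followed in the colon of mice fed heme. The genes were Chga, Chgb and Scg2 (granins of the granule), Tph1 and Ddc (serotonin synthesis), Slc18a1 (vesicular uptake), Slc6a4 (reuptake) and Tac1 (a peptide stored beside serotonin). They are 8 of the 19938 genes with a named probeset on the array, each was measured by 1 probeset, and each passed the filter on low values that left 14953 genes for testing. The genes were taken as known markers of the cell type, not from a measured value of one comparison, but earlier results of these data were known when they were taken.

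The 4 heme pools came from male C57BL/6J mice that ate a diet with 40% of its energy as fat plus 0.2 µmol heme per g, the iron porphyrin of blood and red meat, and were killed on days 2, 4, 7 and 14. The 5 control pools came from male C57BL/6J mice on the same fat-rich diet with no added heme, and were killed on days 0, 2, 4, 7 and 14. All mice were 9 to 11 weeks old and had eaten the control diet for 1 week beforehand, so day 0 is the end of that run-in. Each pool mixed RNA of 4 mice, or 3 in the control pool of day 2, from scraped colon epithelium, and was hybridised to 1 Affymetrix whole-transcript array. Because 1 array stands for each diet and day, the spread between animals was not measured. The title of the study asks which responses to heme are immediate and which are delayed.

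In the gut, Tph1 converts dietary tryptophan to 5-hydroxytryptophan in the rate-limiting step of serotonin synthesis, and Ddc decarboxylates that product to serotonin. Slc18a1 then loads serotonin into dense-core granules, whose matrix is built from chromogranins and secretogranins. Mechanical, chemical and microbial stimuli release the granules toward nerve endings and neighbouring cells, and Slc6a4 on epithelial cells takes released serotonin up again. Ddc also acts on other aromatic amino acids and is found in epithelial cells that make no serotonin.

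The scrapings carried the signature of colon epithelium. The mean of 8 colonocyte markers lay between 11.58 and 11.64 log2 in the heme pools and between 11.48 and 11.57 log2 in the control pools. The pools also differed in other tissue. The exocrine pancreas list averaged 9.39 log2 in the heme pool of day 2 and 8.90 log2 in the control pool of day 2, against 5.52 to 5.66 log2 in the 7 other pools. The smooth muscle list was highest in the day 7 pools of both diets, at 8.88 log2 with heme and 9.60 log2 with control diet. Pancreatic islets also express Chga, Chgb and Scg2. Islet markers (6 measured of 7) averaged 5.10 to 5.31 log2 in the heme pools and 5.17 to 5.23 log2 in the control pools, with 5.24 log2 in the heme pool and 5.17 log2 in the control pool of day 2.

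Upstream sequences are shown for the granins and Tph1, because Chga, Chgb and Tph1 moved together across the pools while Scg2, another granin, did not. Each run is the 200 bases before the annotated start of transcription, written 5′ to 3′ on the gene's strand, from RefSeq on GRCm38.p6. Capitals mark TGACG on either strand, the core of the cAMP response element TGACGTCA. Tph1 has 2 entries, of which the first lies before the outer end of the annotated gene.
Chga (chr12:102554741-102554940, plus strand): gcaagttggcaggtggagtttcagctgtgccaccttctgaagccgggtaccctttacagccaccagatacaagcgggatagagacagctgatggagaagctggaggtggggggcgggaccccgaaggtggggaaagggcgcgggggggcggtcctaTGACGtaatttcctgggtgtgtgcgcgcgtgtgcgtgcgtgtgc
Chgb (chr2:132781442-132781641, plus strand): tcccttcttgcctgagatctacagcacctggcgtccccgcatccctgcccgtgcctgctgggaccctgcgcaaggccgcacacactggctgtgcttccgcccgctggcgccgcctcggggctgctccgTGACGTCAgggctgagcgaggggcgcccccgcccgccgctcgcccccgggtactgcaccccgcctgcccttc
Scg2 (chr1:79440027-79440226, minus strand): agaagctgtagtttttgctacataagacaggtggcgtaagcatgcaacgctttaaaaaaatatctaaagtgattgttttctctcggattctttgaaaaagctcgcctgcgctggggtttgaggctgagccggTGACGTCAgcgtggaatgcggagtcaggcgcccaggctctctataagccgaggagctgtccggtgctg
Tph1 (chr7:46672538-46672737, minus strand): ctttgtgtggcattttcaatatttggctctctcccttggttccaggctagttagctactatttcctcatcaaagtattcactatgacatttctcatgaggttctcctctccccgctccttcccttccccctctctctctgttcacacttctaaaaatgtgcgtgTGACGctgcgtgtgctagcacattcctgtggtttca
Tph1 (chr7:46667378-46667577, minus strand): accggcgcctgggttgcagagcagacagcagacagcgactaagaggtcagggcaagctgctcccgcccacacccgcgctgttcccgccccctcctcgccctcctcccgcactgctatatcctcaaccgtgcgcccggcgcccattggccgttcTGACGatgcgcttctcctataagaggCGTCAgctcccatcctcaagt
Entries were found for 7 of the 8 genes, and Slc18a1 is named only. The full element TGACGTCA stood 72 bases before the start of Chgb and 68 bases before that of Scg2, and 1.55% of all 32851 RefSeq promoter entries held it in the 250 bases before the start. The shorter TGACG, which overlaps it, stood 44 bases before the start of Chga, 36 bases before the first Tph1 start, and 248, 47 and 21 bases before the second (the one at 248 lies outside the printed bases). It also stood 197 and 43 bases before the start of Tac1 and 101 bases before that of Slc6a4. Thus 6 of the 7 genes with an entry held it, called or not, Ddc being the exception. The share over all entries was 17.8%, counted by entry and not by gene. Of the 2 E-boxes searched by letter, CAGCTG (13.0% of entries) was found upstream of Chga and Slc6a4 and CAGATG (14.4% of entries) upstream of Tac1. The other searches, on both strands, were CANNTG (66.2% of entries, overlapping both E-boxes), TATAAA (12.4%) and GGGCGG (32.7%). CANNTG was found upstream of Chga, Chgb, Scg2, Tac1 and Slc6a4. GGGCGG was found upstream of Chga, Chgb, Tac1, Slc6a4 and the second Tph1 start, and TATAAA upstream of Ddc alone. These are matches of letters only, and binding was not measured.

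Chga, Chgb, Tph1 and Slc18a1, which encode the granule matrix, the first step of serotonin synthesis and the vesicular transporter, were called lower after 14 days of heme, and no difference was called after 2 and 4 days. On day 7 Chga and Chgb were called lower, while Tph1 and Slc18a1 had values below all control pools but were not called. Slc6a4 was also called lower on day 14. Ddc was called higher on days 7 and 14. Scg2 and Tac1 passed no test. On day 14, 5 of the 8 genes were called lower and 1 was called higher, where 15.8% and 11.3% of all genes tested were called lower and higher by the same test.

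**Figure D1:**
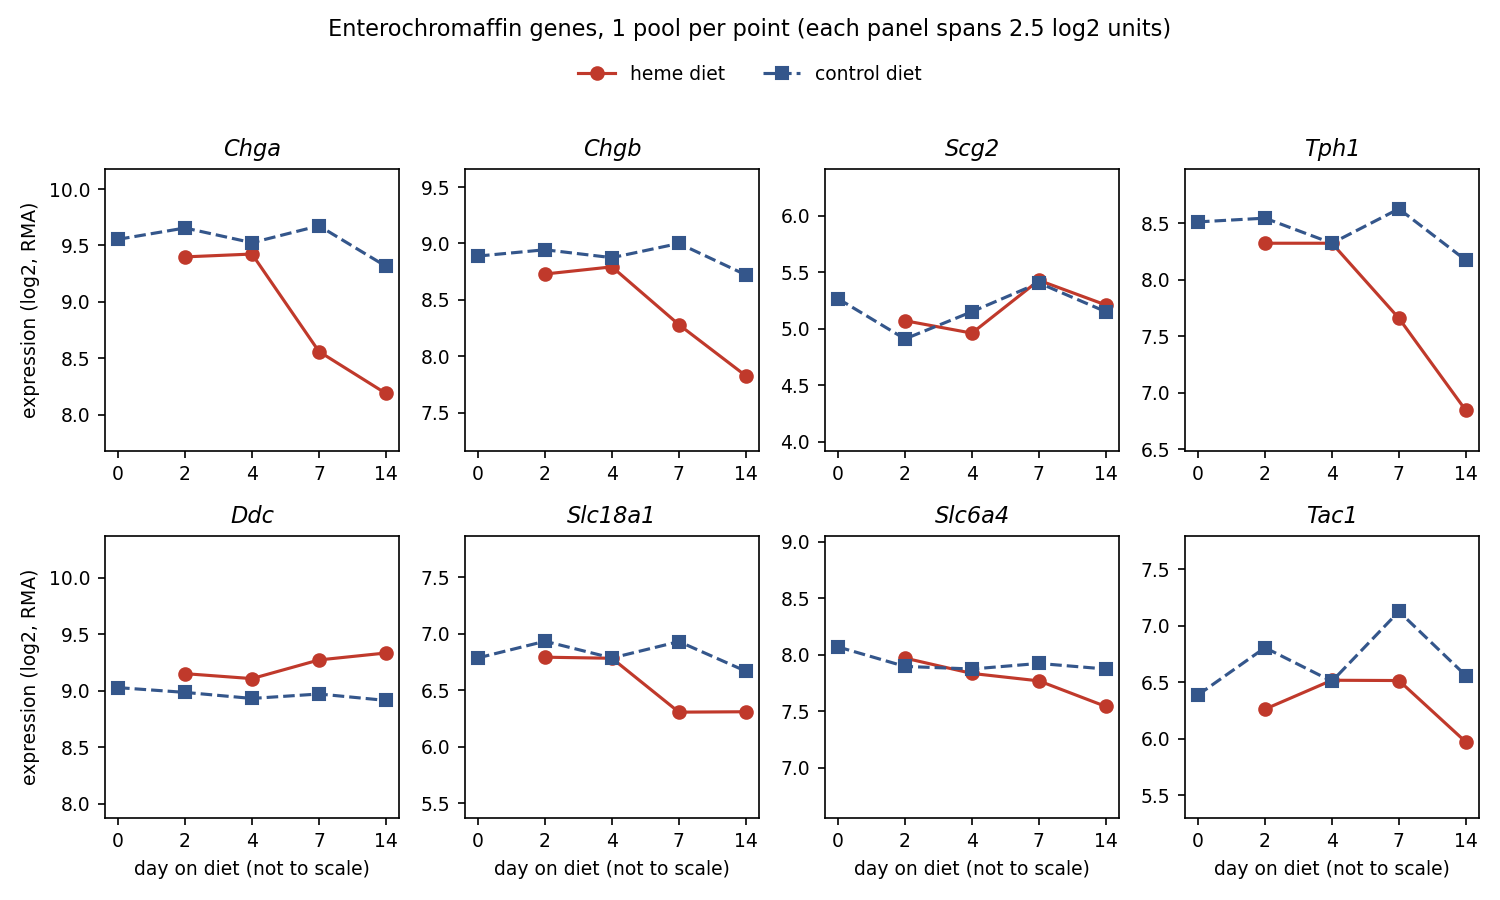
Expression of the 8 genes (log2 RMA value) against day on diet, 1 pool per point, with heme pools as red circles and control pools as blue squares. Chga reached 8.19 log2 and Tph1 6.84 log2 in the heme pool of day 14, while Ddc lay above the control line throughout.

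Chga encodes chromogranin A, the granin most used to mark endocrine cells (probeset 10397882, chromosome 12). It stood at 9.40, 9.42, 8.56 and 8.19 log2 in the heme pools of days 2, 4, 7 and 14, and at 9.55, 9.65, 9.52, 9.67 and 9.32 log2 in the control pools of days 0, 2, 4, 7 and 14. The heme pools of days 7 and 14 lay below all 5 control pools, while those of days 2 and 4 lay inside the control range. Against the mean of the control pools the heme pool of day 14 was 2.56-fold lower (log2 difference -1.36, SE 0.13, limma adjusted p = 0.00413) and that of day 7 1.98-fold lower (-0.98, SE 0.13, limma adjusted p = 0.0332). In bulk RNA, fewer enterochromaffin cells and less Chga RNA per cell cannot be told apart.

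Chgb encodes chromogranin B, a second matrix protein of the same granules (probeset 10476355, chromosome 2). Its levels were 8.73, 8.79, 8.28 and 7.83 log2 in the heme pools of days 2, 4, 7 and 14, against 8.89, 8.94, 8.87, 9.00 and 8.72 log2 in the control pools of days 0, 2, 4, 7 and 14. As for Chga, only the heme pools of days 7 and 14 were below every control pool. Chgb fell by 1.06 on the log2 scale on day 14 (2.08-fold, SE 0.10, limma adjusted p = 0.00387) and by 0.61 on day 7 (SE 0.10, limma adjusted p = 0.0474).

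Scg2 encodes secretogranin II, the precursor of secretoneurin (probeset 10355960, chromosome 1). Its heme pools read 5.07, 4.96, 5.43 and 5.21 log2 on days 2, 4, 7 and 14, and its control pools 5.27, 4.91, 5.15, 5.40 and 5.15 log2 on days 0, 2, 4, 7 and 14. The groups overlapped, and in both diets the highest pool was that of day 7. The smooth muscle list (8.88 log2 with heme, 9.60 log2 with control diet) was also highest on day 7 in both diets. So was the enteric neuron list (5.09 log2 with heme, 5.32 log2 with control diet). The part of these cells in the Scg2 values was not tested. The day 14 difference was 0.03 (SE 0.17, limma adjusted p = 0.928). The mean signal of Scg2 over the pools, 5.17 log2, is close to the filter at 4.72 log2, so a small change would be hard to see.

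Tph1 encodes the tryptophan hydroxylase of the gut (probeset 10563570, chromosome 7). It read 8.33, 8.33, 7.66 and 6.84 log2 in the heme pools of days 2, 4, 7 and 14, and 8.51, 8.55, 8.33, 8.63 and 8.17 log2 in the control pools of days 0, 2, 4, 7 and 14. The heme pools of days 7 and 14 were below every control pool. The values of the heme pools of days 2 and 4 and of the control pool of day 4 are identical to the last deposited digit, a tie that median polish can leave. On day 14 Tph1 was 3.02-fold lower with heme (log2 difference -1.59, SE 0.17, limma adjusted p = 0.00478), the largest difference among the 8 genes. The day 7 difference of -0.78 (SE 0.17) had a limma adjusted p of 0.0818 and was not called.

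Ddc encodes aromatic amino acid decarboxylase (probeset 10384378, chromosome 11). Its heme pools read 9.15, 9.11, 9.27 and 9.33 log2 on days 2, 4, 7 and 14, against 9.03, 8.98, 8.93, 8.97 and 8.91 log2 in the control pools of days 0, 2, 4, 7 and 14. It was the only one of the 8 genes whose 4 heme pools all lay above all 5 control pools, a pattern held by 3.26% of the genes tested. Ddc rose 1.29-fold on day 14 (log2 difference 0.37, SE 0.05, limma adjusted p = 0.00737) and 1.24-fold on day 7 (0.31, SE 0.05, limma adjusted p = 0.0485). Thus the 2 enzymes of serotonin synthesis had differences of opposite sign on day 14.

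Slc18a1 encodes VMAT1, the vesicular monoamine transporter of endocrine cells (probeset 10579023, chromosome 8). It stood at 6.79, 6.78, 6.31 and 6.31 log2 in the heme pools of days 2, 4, 7 and 14, and at 6.79, 6.93, 6.79, 6.93 and 6.67 log2 in the control pools of days 0, 2, 4, 7 and 14. The heme pools of days 7 and 14 had nearly the same value, below all control pools. The day 14 pool was 1.43-fold lower (log2 difference -0.51, SE 0.11, limma adjusted p = 0.0206), and the day 7 pool, with a difference of -0.52 (SE 0.11), had a limma adjusted p of 0.0792. Against the control mean its difference was thus alike on both days, where those of Chga, Chgb and Tph1 were larger in value on day 14. This contrast depends on the reference. Against the control pool of the same day, Slc18a1 differed by -0.63 log2 on day 7 and -0.36 log2 on day 14. The same values were -1.11 and -1.13 for Chga, -0.72 and -0.89 for Chgb, and -0.97 and -1.33 for Tph1. No test compared the days.

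Slc6a4 encodes the serotonin transporter SERT (probeset 10378816, chromosome 11). Its heme pools read 7.97, 7.83, 7.77 and 7.54 log2 on days 2, 4, 7 and 14, and its control pools 8.07, 7.90, 7.87, 7.92 and 7.87 log2 on days 0, 2, 4, 7 and 14. The heme pools of days 4, 7 and 14 lay below every control pool and that of day 2 inside their range. The control pools of days 4 and 14 had equal values, which understates the spread. Slc6a4 fell by 0.39 on the log2 scale on day 14 (1.31-fold, SE 0.08, limma adjusted p = 0.0199). On day 7 its difference was -0.16 (SE 0.08, limma adjusted p = 0.418).

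Tac1 encodes the precursor of substance P, which some enterochromaffin cells and many enteric neurons make (probeset 10536363, chromosome 6). It read 6.26, 6.52, 6.51 and 5.97 log2 in the heme pools of days 2, 4, 7 and 14, against 6.39, 6.81, 6.51, 7.13 and 6.56 log2 in the control pools of days 0, 2, 4, 7 and 14. The groups overlapped, and the control pool of day 7 was the highest. The enteric neuron list (10 genes measured of 11) averaged 4.82 to 5.09 log2 in the heme pools, against 5.32 log2 in the control pool of day 7 and 4.78 to 4.90 log2 in the other control pools. The smooth muscle list (7 of 7) averaged 6.93 to 8.88 log2 in the heme pools, against 9.60 log2 in the control pool of day 7 and 7.08 to 8.32 log2 in the other control pools. The part of these cells in the Tac1 values was not tested. The day 14 difference of -0.71 (SE 0.26) had a limma adjusted p of 0.0951.

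**Figure D2:**
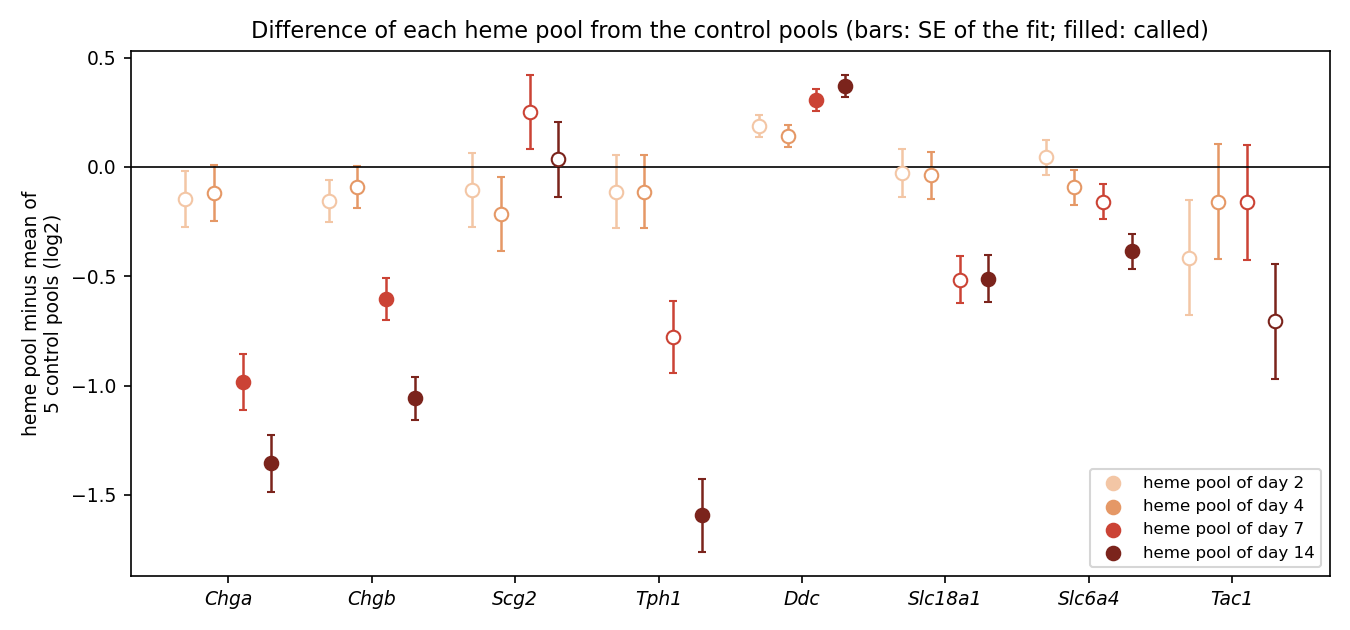
Difference of each heme pool from the mean of the 5 control pools (log2) for each of the 8 genes, with the standard error of the limma fit as bars, and filled points for calls. For Chga, -0.15 on day 2 and -0.12 on day 4 stand beside -1.36 on day 14. For Tph1, -0.11 on days 2 and 4 stands beside -1.59 on day 14. Tac1 is at -0.42 on day 2, Scg2 at -0.22 on day 4, and Ddc is above 0 on all 4 days.

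On days 2 and 4 no member was called, nor was any other gene: 0% of genes tested were called on day 2 and 0% on day 4, with 1385 and 1051 genes at an unadjusted p under 0.05. The day 2 differences of Chga, Chgb, Tph1 and Slc18a1 were -0.15, -0.16, -0.11 and -0.03, and those of day 4 were -0.12, -0.09, -0.11 and -0.04. On day 7, Chga and Chgb were called lower and Ddc higher, where 0.762% of all genes were called lower and 0.876% higher. Leaving out any 1 of the 5 control pools ended each of these 3 calls, with limma adjusted p up to 0.104 for Chga, 0.118 for Chgb and 0.125 for Ddc, and the number of day 7 calls over all genes was then 8 to 67, in place of 245. All 6 day 14 calls were kept when any 1 control pool was left out, the highest limma adjusted p being 0.0489, for Slc6a4.

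Compared with the control pool of the same day alone, Chga differed by -0.26, -0.10, -1.11 and -1.13 log2 on days 2, 4, 7 and 14. For Tph1 the same differences were -0.22, 0, -0.97 and -1.33 log2. These pairs carry no test, and the day 14 gap is smaller than against the control mean because the control pool of day 14 was the lowest control pool for Chga, Chgb, Tph1 and Slc18a1. No slope over log2(day + 1) was called for any gene in the control pools (0%, 1073 genes at an unadjusted p under 0.05), and the 8 genes had slopes between -0.06 and 0.08 log2 there. Over the 4 heme pools the slopes were -0.67 for Tph1, -0.58 for Chga and -0.42 for Chgb. No gene was called for its slope in the heme pools either (0%, 3110 genes at an unadjusted p under 0.05).

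Averaged over all days, heme pools did not differ from control pools by the test in any of the 8 genes, where 0.669% of all genes were called. The mean of Chga was 8.89 ± 0.62 log2 with heme (SD, n = 4 pools) and 9.54 ± 0.14 log2 without (SD, n = 5 pools), with a limma adjusted p of 0.232. For Tph1 it was 7.79 ± 0.70 log2 with heme (SD, n = 4 pools) and 8.44 ± 0.18 log2 without (SD, n = 5 pools), with a limma adjusted p of 0.275. The heme SD exceeded the control SD severalfold for both genes, since early and late pools enter one mean. Ddc had the smallest limma adjusted p, 0.0566 (log2 difference 0.25, SE 0.05), and this dropped to 0.0398 without the heme pool of day 2 and to 0.0419 without that of day 4. The median difference over the 8 genes was -0.32 log2, beside -0.00198 log2 over all genes tested.

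Whether the diet difference itself changed between days 2 and 4 and days 7 and 14 was tested over the 8 pools of those days, and 0% of genes were called, with 990 at an unadjusted p under 0.05. The lowest p among the members was that of Chga (late minus early -0.94 log2, SE 0.20, limma adjusted p = 0.424). For Tph1 the change was -1.04 log2 (SE 0.36, limma adjusted p = 0.689) and for Chgb -0.66 log2 (SE 0.21, limma adjusted p = 0.663). The low values of the late pools were thus not called by the test of the difference between early and late days. With the day on diet as a block the limma adjusted p of Chga was 0.0674.

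A split chosen after the values were seen set the 2 heme pools of days 7 and 14 against the 5 control pools. Its p-values come from the values that led to the split, so they give no separate support. Chga (-1.17 log2, limma adjusted p = 0.00149), Chgb (-0.83, limma adjusted p = 0.00506), Tph1 (-1.19, limma adjusted p = 0.0109) and Slc18a1 (-0.51, limma adjusted p = 0.00783) were called lower, and Ddc (0.34, limma adjusted p = 0.00319) higher. By this test 6.59% of all genes were called lower and 4.3% higher. The 2 heme pools of days 2 and 4 against the same controls gave no call among the 8 genes, where 0.0602% of all genes were called. The heme pools of days 7 and 14 both lay below all 5 control pools for 5 of the 8 genes (Chga, Chgb, Tph1, Slc18a1 and Slc6a4), as they did for 18.2% of the genes tested.

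Across the 9 arrays, Chga, Chgb and Tph1 followed each other closely. Pearson's r was 0.991 for Chga with Chgb, 0.992 for Chgb with Tph1, 0.978 for Chga with Tph1 and 0.969 for Chga with Slc18a1. Ddc ran opposite to Chga (r = -0.862), and Scg2 was only loosely related to it (r = -0.343). Outside the 8 genes, the profiles most like that of Chga were those of Crim1 (0.994), Stra6l (0.993), Me3 (0.992), Dio1 (0.988) and Chpt1 (0.987), and those most like Tph1 were Ttyh3 (0.993), Kit (0.993), Slc7a8 (0.991), Zfp148 (0.990) and Wdtc1 (0.990). These r values describe 9 pools that share diet, day and joint normalization, and carry no test.

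Other secretory genes were lower in part. Of 17 granule and exocytosis proteins tested, 5 were called lower and 0 higher on day 14, where 15.8% of all genes were called lower and 11.3% higher. The list had a median day 14 difference of -0.31 log2, beside -0.00105 log2 for all genes. On day 7, 2 of the 17 were called lower, Resp18 and Pcsk1, where 0.762% of all genes were. The 5 genes called on day 14 were Resp18 together with Pcsk1, Pam, Ptprn2 and Scgn, and the last 4 are named here after their values were seen.

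Resp18, a granule-associated endocrine protein, read 5.17, 5.20, 4.50 and 4.50 log2 in the heme pools of days 2, 4, 7 and 14, against 5.19, 5.32, 5.22, 5.46 and 5.28 log2 in the control pools of days 0, 2, 4, 7 and 14. Its heme pools of days 7 and 14 lay below all control pools, with a day 14 difference of -0.80 (SE 0.11, limma adjusted p = 0.00752). Both late values are under the filter of 4.72 log2 and the mean of Resp18 over the pools was 5.09 log2, so it was measured near the low end, as Scg2 was. Pcsk1, the convertase that cuts prohormones in the granule, read 8.10, 8.11, 7.74 and 7.09 log2 in the heme pools of days 2, 4, 7 and 14, against 8.15, 8.27, 8.17, 8.25 and 8.16 log2 in the control pools of days 0, 2, 4, 7 and 14. All 4 heme pools of Pcsk1 were below all 5 control pools, as for 2.33% of the genes tested, and the day 14 pool was 2.16-fold lower (-1.11, SE 0.06, limma adjusted p = 0.00229). Pam, which amidates peptides, fell by 0.48 (limma adjusted p = 0.00967), Scgn, a calcium sensor of endocrine cells, by 0.66 (limma adjusted p = 0.021), and Ptprn2, a granule membrane protein, by 0.31 (limma adjusted p = 0.0326). Cpe, the carboxypeptidase of the granule, had a day 14 difference of -1.10 with an SE of 0.39 and was not called (limma adjusted p = 0.0824). Its control pools spread from 7.72 to 8.84 log2, the highest being that of day 7. Scgn had equal values in the control pools of days 0 and 2, which understates its spread. Cplx2 and Vgf, with the highest diet differences of the list, stood at 0.18 and 0.15 on day 14 and were not called.

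**Figure D3:**
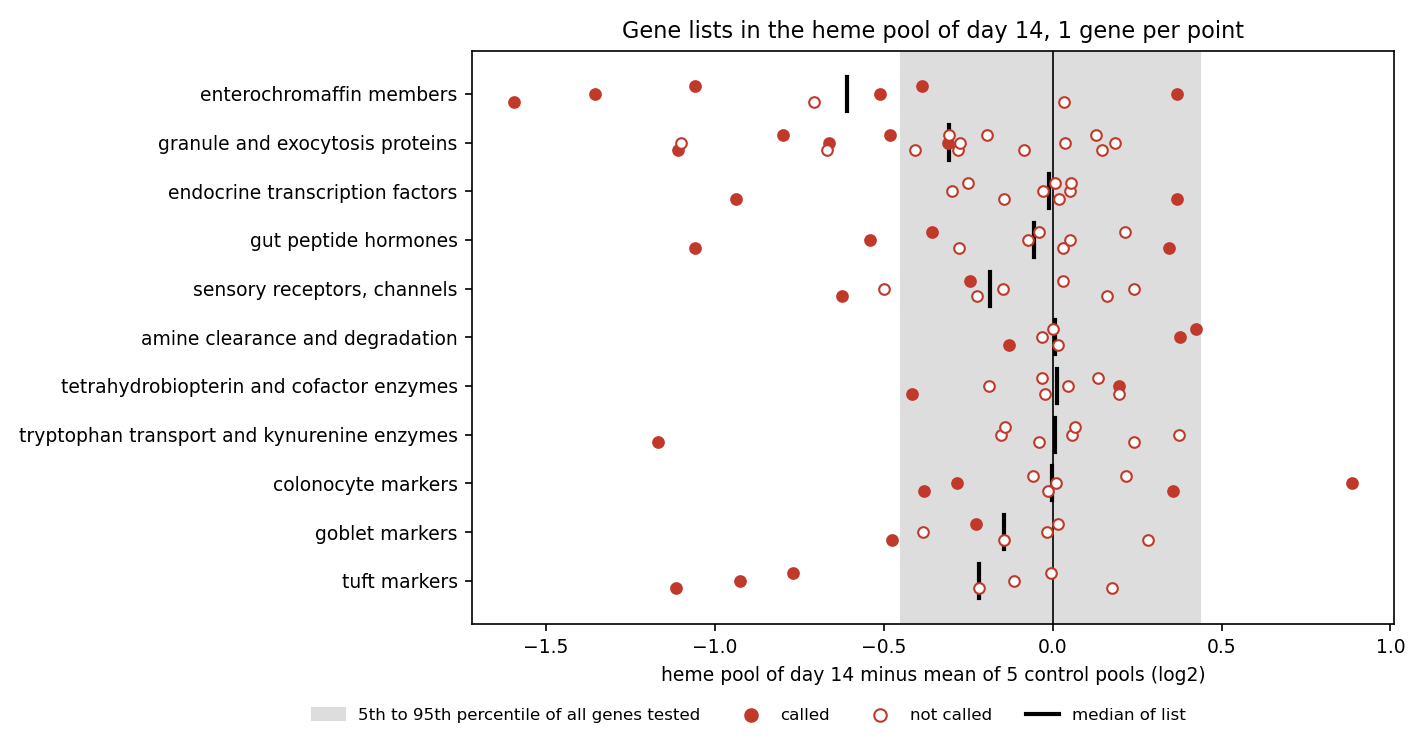
Difference of the heme pool of day 14 from the mean of the 5 control pools (log2) for each tested gene of 11 lists, with the list median as a black bar and the range between the 5th and 95th percentiles of all genes as a grey band. The enterochromaffin genes have a median of -0.61 log2 and the granule proteins one of -0.31 log2, while the hormone list is centred near 0.

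Among 10 endocrine transcription factors tested, 1 was called lower and 1 higher on day 14, near or below the shares over all genes (15.8% lower and 11.3% higher), so the count says nothing of these factors as a group. Neurod1, a factor of endocrine differentiation that acts after Neurog3, read 6.21, 6.08, 5.72 and 5.26 log2 in the heme pools of days 2, 4, 7 and 14, against 6.12, 6.42, 6.00, 6.36 and 6.08 log2 in the control pools of days 0, 2, 4, 7 and 14. Its heme pools of days 7 and 14 were below all control pools, and it fell by 0.94 on day 14 (SE 0.17, limma adjusted p = 0.0138). Neurog3, which starts endocrine differentiation and is named here after its values were seen, was the factor called higher, with a day 14 difference of 0.37. Its mean over the pools, 4.92 log2, is near the filter at 4.72 log2, and it had 7 distinct values in 9 pools. Rfx6, another endocrine factor, had a day 14 difference of -0.30 (limma adjusted p = 0.105), and Isl1 and Pax4 stood at 0.01 and 0.05.

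The peptide hormones of other endocrine cells behaved unevenly. Of 10 tested, Nts (neurotensin), Iapp (amylin) and Sct (secretin) were called lower and Gip higher on day 14, beside 15.8% and 11.3% over all genes, and the list median was -0.06 log2. Iapp and Gip were measured near the low end, with means of 5.15 and 5.37 log2 over the pools beside a filter at 4.72 log2. Gip also had equal values in the control pools of days 0 and 7. Nts, which is made by enteroendocrine cells of the lower gut, read 7.36, 7.82, 6.95 and 6.55 log2 in the heme pools of days 2, 4, 7 and 14, against 7.59, 7.95, 7.65, 7.45 and 7.40 log2 in the control pools of days 0, 2, 4, 7 and 14. It was 2.09-fold lower on day 14 (-1.06, SE 0.20, limma adjusted p = 0.0145). Sct, named after its values were seen, fell by 0.36 (limma adjusted p = 0.0411), Iapp fell by 0.54 (limma adjusted p = 0.0468) and Gip was 0.35 higher (limma adjusted p = 0.0114).

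The hormones of colonic L cells, Gcg, Pyy and Insl5, were picked out after their values were seen. Gcg lay between 9.65 and 9.74 log2 in the heme pools and between 9.59 and 9.79 log2 in the control pools, Pyy between 9.74 and 10.01 log2 in the heme pools and between 9.86 and 10.26 log2 in the control pools. The ranges of both genes overlapped. Their day 14 differences were 0.03 (SE 0.08, limma adjusted p = 0.837) and -0.07 (SE 0.13, limma adjusted p = 0.773). For Insl5 the day 14 difference was -0.04 (SE 0.08, limma adjusted p = 0.774) and the day 7 difference -0.39 (SE 0.08, limma adjusted p = 0.0684). Whether these differences differ from those of Chga or Tph1 was not tested.

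**Figure D4:**
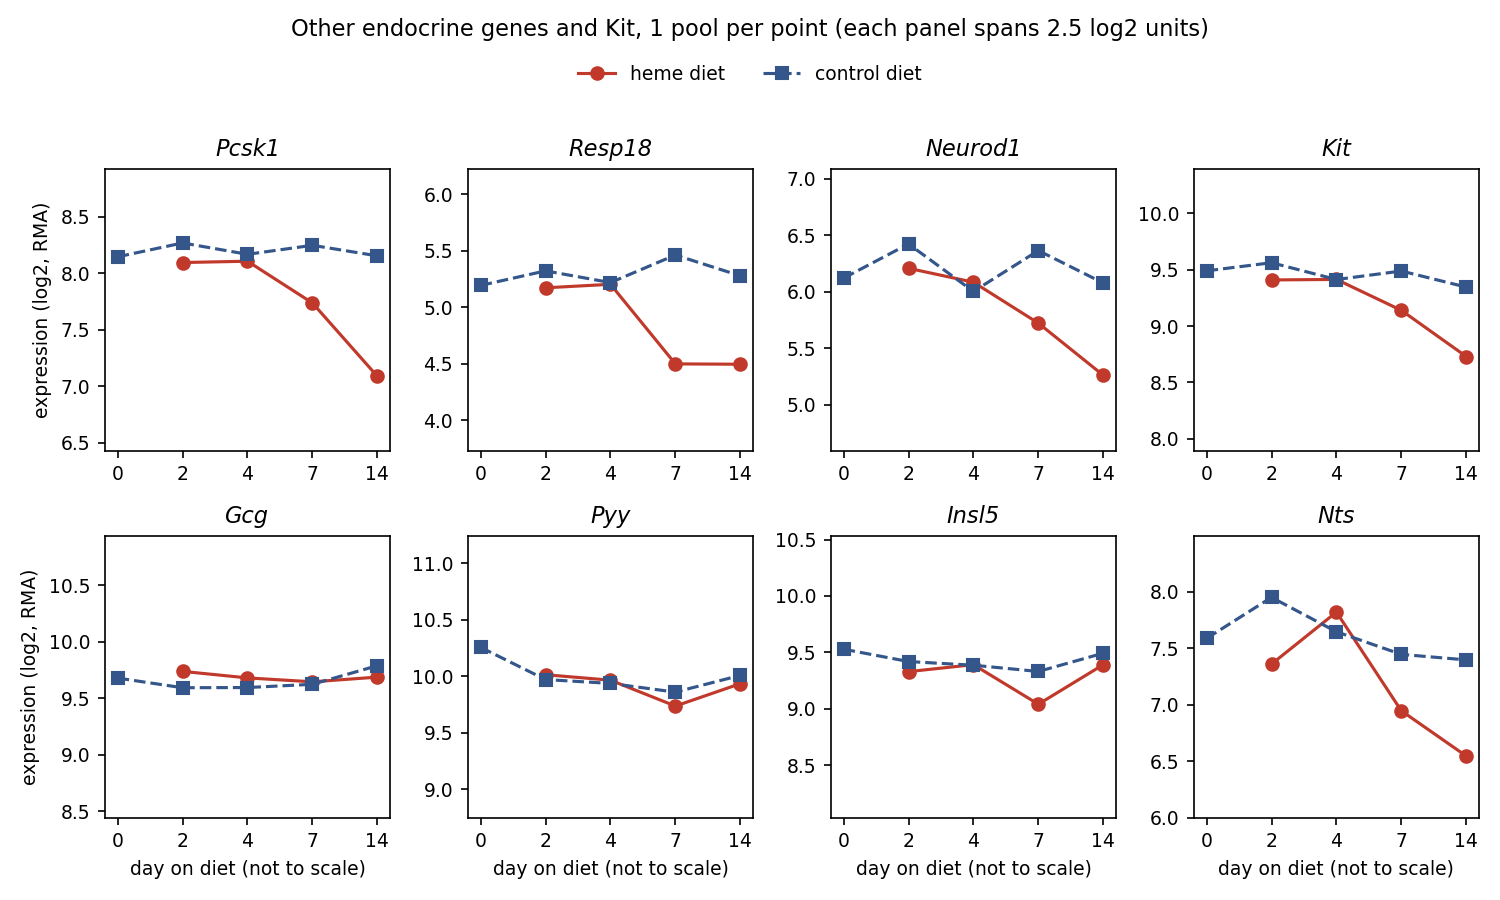
Expression (log2 RMA value) against day on diet of 3 endocrine genes with day 14 calls (Pcsk1, Resp18, Neurod1), Kit, and the hormones Gcg, Pyy, Insl5 and Nts, 1 pool per point, heme pools as red circles and control pools as blue squares. Pcsk1 reached 7.09 log2 in the heme pool of day 14, while Gcg stayed between 9.59 and 9.79 log2 in all 9 pools.

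Sensory genes and serotonin receptors were called one by one, on a day when 15.8% of all genes were called lower and 11.3% higher. Among 8 sensory receptors and channels tested, Piezo2, the mechanosensitive channel of enterochromaffin cells, was lower on day 14 (-0.62, SE 0.10, limma adjusted p = 0.0102), and so was the calcium channel gene Cacna1h (-0.24, limma adjusted p = 0.0289), named after its values were seen. Cacna1h had equal values in the control pools of days 0, 2 and 7 and only 5 distinct values in 9 pools. The spread of Cacna1h is thus understated. Piezo2, shown by the highest-mean of its 3 probesets, read 6.12, 6.34, 5.97 and 5.89 log2 in the heme pools of days 2, 4, 7 and 14. Its control pools read 6.48, 6.40, 6.51, 6.67 and 6.49 log2 on days 0, 2, 4, 7 and 14. No heme pool of Piezo2 reached the control range, as for 2.33% of the genes tested. Scn3a, a sodium channel of these cells, had a day 14 difference of -0.50 (limma adjusted p = 0.0585). Of 3 serotonin receptors tested, Htr4, which raises cAMP, was called lower on day 7 (-0.43) and day 14 (-0.38). The day 7 call of Htr4 is read against the day 7 shares given above, which were smaller. Whether it holds with a control pool left out was not examined, and the day 7 calls of Chga, Chgb and Ddc did not. Htr2a, which signals through phospholipase C, was called higher on day 14 (0.53). It averaged 5.08 log2 over the pools, near the filter at 4.72 log2.

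Calls among the enzymes before and after serotonin were in both directions and are read against the same day 14 shares. Among 6 genes of amine clearance, Maob, a monoamine oxidase, was 0.42 higher (limma adjusted p = 0.0117), Aanat, which acetylates serotonin, 0.38 higher (limma adjusted p = 0.0116) and Aldh2, an aldehyde dehydrogenase, fell by 0.13 (limma adjusted p = 0.0424) on day 14. Of 8 genes for the Tph1 cofactor tetrahydrobiopterin and the Ddc cofactor pyridoxal phosphate, Spr (sepiapterin reductase) was 0.20 higher (limma adjusted p = 0.0412) and Pdxk (pyridoxal kinase) fell by 0.42 (limma adjusted p = 0.0218), while Gch1, the entry enzyme of tetrahydrobiopterin synthesis, stood at 0.20 (limma adjusted p = 0.184). Maoa, the other monoamine oxidase, had the highest mean of the amine list (11.58 log2) and was not called. Its day 14 difference was 0.0009, and it is named after its values were seen. Aanat averaged 4.87 log2 over the pools, near the filter at 4.72 log2, and had only 5 distinct values in 9 pools. Spr had equal values in the control pools of days 0 and 14. The spread of Aanat and Spr is thus understated. Ido1, which diverts tryptophan to kynurenine, read 8.02, 8.02, 7.28 and 7.07 log2 in the heme pools of days 2, 4, 7 and 14, against 8.51, 8.31, 7.94, 8.28 and 8.16 log2 in the control pools of days 0, 2, 4, 7 and 14. It was 2.25-fold lower on day 14 (-1.17, SE 0.19, limma adjusted p = 0.0104) and was the 1 gene called among the 8 of tryptophan transport and breakdown.

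Some markers of other epithelial cells were called on the same day, against the same shares of 15.8% lower and 11.3% higher over all genes. Of 7 tuft cell markers tested, 3 were called lower on day 14, namely Rgs13 (-1.12, limma adjusted p = 0.00679), Dclk1 (-0.77, limma adjusted p = 0.00711) and Trpm5 (-0.93, limma adjusted p = 0.00389), the last named after its values were seen. The tuft markers not called stood at 0.18 (Gfi1b), -0.004 (Sh2d6), -0.12 (Pou2f3) and -0.22 (Alox5ap) on day 14. Alox5ap is named after its values were seen. The tuft list averaged 6.21 to 6.60 log2 in the heme pools and 6.60 to 6.72 log2 in the control pools. Of 7 goblet cell markers, 2 were called lower and 0 higher, namely Clca1 (-0.47, limma adjusted p = 0.0102) and Muc2, the main mucin (-0.23, limma adjusted p = 0.0179). Of 5 stem cell markers, 1 was called lower, Rgmb (-0.33, limma adjusted p = 0.0116). Of 8 colonocyte markers, 2 were called higher and 2 lower, and Aqp8, a water channel of surface colonocytes, was called higher between diets, on day 7 and on day 14 (day 14 difference 0.89, limma adjusted p = 0.00324). Kit, a receptor tyrosine kinase, was called lower on day 14 (-0.73). The mast cell list to which Kit belongs averaged 4.72, 4.64, 4.92 and 5.01 log2 in the heme pools of days 2, 4, 7 and 14. In the control pools the list averaged 4.66 to 4.73 log2, below its heme pools of days 7 and 14. Of its 9 measured genes only 3 passed the filter on low values. The goblet markers not called stood at 0.28 (Spink4), 0.02 (Agr2), -0.02 (Zg16), -0.14 (Tff3) and -0.39 (Spdef) on day 14. Tff3 is named after its values were seen. Whether the share of tuft, surface or other cells in a scraping has a part in the values of the 8 genes was not tested.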

How the data were processed

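The values used are log2 signals per probeset as the authors deposited them, produced by RMA according to the submitters' processing notes (its version: not given in the sources consulted). RMA normalizes the arrays jointly, and its median polish left 5146 of the genes tested with equal values in 2 or more control pools, which understates their spread. Of 35556 probesets, 21789 had 1 symbol in the platform annotation, 1621 had several and were left out, and 12146 were unnamed here. The highest-mean probeset stood for each of 19938 genes, and those in the lowest 25% by mean (under 4.72 log2) were not tested.

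Models were fitted with limma 3.58.1 in R 4.3.3 (lmFit, eBayes with intensity trend). Benjamini-Hochberg adjustment was over 14953 genes, and calls were made at an adjusted p under 0.05. The diet and late-minus-early models were also run on simulated data, while the single-day tests and the slopes were not. Tables were made with pandas 2.3.3 in Python 3.11.15 and plots with matplotlib 3.10.9. A single heme day has 1 pool, so the 5 control pools (4 degrees of freedom) supply its spread. P-values measure spread between pools of different days, not animals, and precision is limited by 9 arrays. Same-day pools share a day in the labels. Their deviations correlated with r = 0.658 on day 2, 3.55e-05 on day 4, 0.300 on day 7 and 0.204 on day 14. Between heme and control pools of different days r ranged from -0.475 to 0.396, the highest being heme day 7 with control day 14.

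The 8 genes, the 21 gene lists and the tests were chosen with earlier results of these data known. Names from the other lists came from genes called between diets and the 2 highest and 2 lowest diet differences. For marker lists the 3 highest levels were added. Not every gene that met this rule is named, and the choice among them followed no stated rule. Other names are said to be chosen after their values were seen. Of 195 genes on the lists, 175 were measured.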

Additional observations from a re-analysis of the deposited data

Results flagged for a closer look

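Slc6a4 was 8.07 log2 in the control pool of day 0 and 7.87 to 7.92 log2 in the 4 other control pools, a gap of 0.748 of the group's range where the critical value for 5 samples is 0.71. Chance alone flags about 1 in 20 groups, and 16 groups (8 genes in 2 diets) were examined. Day 0 has no heme pool. Without it, the day 14 difference of Slc6a4 was still called lower (limma adjusted p = 0.0162).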

How the results depend on the processing

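All 6 day 14 calls among the 8 genes were kept under every alternative tried for that comparison (other filters, probeset means, no intensity trend, median centring and leaving out each control pool). The day 7 calls of Chga, Chgb and Ddc were lost with each control pool left out and without a filter (adjusted p 0.0507, 0.0684 and 0.0684), those of Chgb and Ddc without the intensity trend (0.0618 and 0.0722), and that of Ddc with median centring (0.0824). Ddc in the diet comparison was called with the filter at the median (0.0447) and with median centring (0.0419). With the day as a replicate block, 77 genes were called between diets in place of 100, and no call among the 8 genes changed.

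Genes called between diets numbered 30 to 251 when 1 pool was left out, 0 without both pools of day 7, and 0 without both pools of day 14. With only the heme pools of days 7 and 14 they numbered 1629, and with only those of days 2 and 4 they numbered 9. These last 4 settings were chosen after seeing the data. Day 2 calls numbered 0 to 16 with 1 pool left out. Day 4 calls numbered 1 with the median filter, 1 with probeset means and 6 with median centring. Day 7 calls numbered 95 without a filter, 393 with the median filter, 115 without the trend and 8 to 67 with 1 pool left out, from 245. Where only the samples or the filter were changed, the number of samples or of genes tested changed with it; otherwise the cause was not tested.

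Signs turned for no called value. The diet difference of Scg2 was 0.014 with the replicate block, 0.14 with late heme pools only, and -0.096 to 0.060 with 1 pool left out. Its late-minus-early value ranged from -0.072 to 0.18 and its day 14 value from -0.033 to 0.091 with 1 pool left out. Slc18a1 was 0.00421 on day 2 with median centring. With 1 pool left out, control slopes ranged over -0.12 to 0.024 for Chga, -0.077 to 0.025 for Chgb, -0.12 to 0.0061 for Tph1, -0.090 to 0.033 for Slc18a1, -0.030 to 0.19 for Tac1 and -0.017 to 0.12 for Scg2. The heme slope of Tac1, -0.13 over all 4 pools, ranged from -0.36 to 0.18. Scg2 has no value under the median filter. What limits these results is 1 array per diet and day.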
